A study of Mus musculus with 16 samples.

Results

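The RNA levels of 10 genes of microRNA silencing and mRNA decapping were compared in cultured mouse neurons that had received human apoE. They are 4 Argonaute genes (*Ago1*, *Ago2*, *Ago3* and *Ago4*), 3 GW182 genes (*Tnrc6a*, *Tnrc6b* and *Tnrc6c*) and 3 decapping genes (*Dcp1a*, *Dcp1b* and *Dcp2*). The 10 were picked by symbol among the 48397 gene symbols counted in every library, and all 10 were among the 17038 genes that passed the filter on low counts. They were picked with results of these libraries known, so their values in the 4 groups are given as a description, and the fitted p-values, adjusted over all 17038 genes, are not independent support for it. The neurons were primary hippocampal neurons of wild type CD1 mice, taken from pups of 0 to 2 days. In all 4 groups they were exposed to AraC, which stops dividing cells, and on days 10 and 13 *in vitro* (DIV) to conditioned medium that had been concentrated 10-fold. The medium came from immortalized astrocytes of mice with the human *APOE* ε2, ε3 or ε4 allele in place of mouse *Apoe* (groups apoE2, apoE3 and apoE4) or from *Apoe-/-* astrocytes (control). RNA was taken at 17 DIV, and each group had 4 libraries, 16 in all. The neurons' own *Apoe* gene was intact in every group, and each kind of medium came from an immortalized astrocyte line, so the allele and the line that carried it cannot be told apart.

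Argonaute proteins hold a microRNA and pair it with target mRNAs, mostly in the 3′UTR. GW182 proteins bind Argonaute and recruit the deadenylases that shorten the poly(A) tail. The decapping enzyme DCP2, with its activator DCP1, then removes the 5′ cap, after which the mRNA is degraded from that end. In neurons, this machinery also acts in dendrites, where it limits the translation of localized mRNAs.

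Positions are those of GENCODE M21 on the mouse genome mm10. *Ago3* (chr4:126331704-126429556), *Ago1* (chr4:126435012-126468583) and *Ago4* (chr4:126489541-126533472) are neighbours on the minus strand of chromosome 4, and *Ago2* lies apart on the minus strand at chr15:73095844-73184935. *Tnrc6a* is at chr7:123123885-123195296, *Tnrc6b* at chr15:80711313-80941085 and *Tnrc6c* at chr11:117654289-117763439, all on the plus strand. The decapping genes are also on the plus strand, *Dcp1a* at chr14:30479535-30527063, *Dcp1b* at chr6:119175253-119221616 and *Dcp2* at chr18:44380502-44424969. Exons of *Ago2* overlap those of *Chrac1* on the other strand over 1.56% of their bases. Whether reads were counted by strand is not given in the sources used here, so reads there cannot be assigned with certainty. On the same strand, *Tnrc6a* exons overlap the lincRNA *Gm45846* over 143 bases (1.13%) and those of *Tnrc6b* the microRNA gene *Mir5113* over 82 bases (0.346%), and reads there are ambiguous whatever the strand setting.

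Libraries held 14087723 to 34248172 reads on genes, with a median of 22221832, and 38.4 to 73.7% of a library's reads could not be placed on a single gene. The control, apoE2, apoE3 and apoE4 groups had overlapping ranges of reads on genes. ApoE4 library 2 and apoE2 library 4 stood apart from the other 14. *Lars2*, a mitochondrial leucyl-tRNA synthetase gene, took 0.359% and 0.690% of their reads on genes, against 2.83% or more in the others, and 38.6% and 38.4% of their reads were on no single gene, against 51.4 to 73.7%. The markers of neurons were present in every library, with a summed level of 2851 to 7096 CPM (edgeR's count scaled to sequencing depth, with TMM-scaled library sizes) over 8 genes that include *Map2*, *Snap25* and *Slc17a7*. The 6 astrocyte markers were present in every library too and summed to 391.9 to 5017 CPM. The 5 microglia markers summed to 4.71 to 13.7 CPM, and of them *Tmem119* was at 0 in 1 library. In such bulk libraries fewer cells of a type and less RNA per cell cannot be told apart.

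The genes differed in the length of the 3′UTR, the part of the mRNA in which microRNAs mostly pair. The longest annotated 3′UTR had 12742 bases in *Ago3*, 11609 in *Tnrc6b*, 11064 in *Ago2* and 7240 in *Dcp2*. In the other 6 genes it had 1536 to 4491 bases. Mature sequences of 4 neuronal microRNAs are shown because the seed, bases 2 to 8 in capitals, decides which sites in these 3′UTRs they could pair with. They are RefSeq entries of the assembly GRCm38.p6, and microRNAs were not measured in these libraries.
mmu-let-7a-5p: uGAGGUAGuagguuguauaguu
mmu-miR-9-5p: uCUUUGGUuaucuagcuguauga
mmu-miR-128-3p: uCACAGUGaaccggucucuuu
mmu-miR-132-3p: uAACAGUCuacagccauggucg

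The complement of the let-7a seed (CTACCTC, searched on the strand of the mRNA) occurred 3 times in the 3′UTR of *Ago2*, once in that of *Ago3* and not in the other 8. Over the tested genes with an annotated 3′UTR, 11.9% held it, and of the 224 with a 3′UTR of 7 kb or more 46.4% did. The miR-132 match (GACTGTT) occurred 3 times in *Tnrc6b*, 2 times in *Ago3* and once each in *Ago1* and *Ago2*, against 13.4% of all 3′UTRs and 52.2% of the long ones with any. The miR-128 match (CACTGTG) occurred 4 times in *Dcp2*, 3 times in *Ago3* and 2 times in *Ago2*. It occurred once each in *Ago4*, *Tnrc6a*, *Dcp1a* and *Dcp1b*, and 24.4% of all 3′UTRs and 71.4% of the long ones held it. The miR-9 match (ACCAAAG) occurred once each in *Tnrc6b*, *Dcp1b* and *Dcp2*, and 15.7% of all 3′UTRs and 52.2% of the long ones held it. These are matches of letters and not measured sites. The let-7a matches of *Ago2* and *Ago3* and the miR-132 matches of *Tnrc6b* are printed in the direction of the mRNA, each with its position on mm10 and with the match in capitals.
Ago2, chr15:73101723-73101744, minus strand: agatgcataaaagCTACCTCtg
Ago2, chr15:73100039-73100060, minus strand: ggtggcctctgtcCTACCTCca
Ago2, chr15:73097981-73098002, minus strand: ttacaatgtggatCTACCTCag
Ago3, chr4:126335039-126335060, minus strand: cacctgccctcacCTACCTCac
Tnrc6b, chr15:80932861-80932882, plus strand: ttactgggggggtGACTGTTga
Tnrc6b, chr15:80933159-80933180, plus strand: aaaattacctatgGACTGTTct
Tnrc6b, chr15:80939854-80939875, plus strand: ggagaggtctctgGACTGTTtt

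Among the Argonautes, *Ago2*, which encodes the only mammalian Argonaute with strong slicer activity, stood out in the apoE4 libraries. Its level was 441.7, 226.3, 312.5 and 289.1 CPM in apoE4 libraries 1 to 4. It was 142.0, 127.4, 124.2 and 92.8 CPM in the control libraries. In the apoE2 libraries it was 94.5, 97.4, 160.1 and 85.5 CPM, and in the apoE3 libraries 98.0, 125.6, 127.9 and 105.5 CPM. The lowest apoE4 library was above the highest of the other 12, and the control, apoE2 and apoE3 groups overlapped each other. The group means were 121.6 ± 20.7 CPM (SD, n = 4) in the control, 109.4 ± 34.2 with apoE2, 114.3 ± 14.8 with apoE3 and 317.4 ± 90.5 with apoE4.

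*Ago3*, an Argonaute that binds microRNAs like the others, was measured at 69.7, 47.4, 57.0 and 53.7 CPM in apoE4 libraries 1 to 4. In the control libraries it was 44.9, 36.9, 37.1 and 32.1 CPM. The apoE3 libraries held 42.6, 40.6, 42.2 and 35.0 CPM, also all below the apoE4 libraries. The apoE2 libraries held 48.9, 37.7, 47.4 and 37.1 CPM, and apoE4 library 2 fell within their range. *Ago1*, the neighbour of *Ago3*, lay between 86.6 and 120.1 CPM in all 16 libraries with group means of 93.2 to 110.6 CPM. *Ago4*, the next gene in the row, lay between 6.55 and 11.9 CPM with group means of 8.31 to 9.66 CPM. The 4 groups overlapped for both genes, so of the 3 genes on chromosome 4 *Ago3* alone had all 4 apoE4 values above all control values.

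The RefSeq promoters of *Ago3* and *Ago1* are shown because these neighbours differed in the apoE4 libraries, and that of *Tnrc6b* because it is a gene with higher apoE4 values on another chromosome. Each spans the annotated start and is printed in the direction of the gene (GRCm38.p6), with matches of 4 motifs in capitals. The motifs were searched on both strands as the ETS core CCGGAA, the E-box CACGTG, the cyclic AMP element TGACGTCA and the GC box GGGCGG.
Ago3, chr4:126429493-126429792, minus strand: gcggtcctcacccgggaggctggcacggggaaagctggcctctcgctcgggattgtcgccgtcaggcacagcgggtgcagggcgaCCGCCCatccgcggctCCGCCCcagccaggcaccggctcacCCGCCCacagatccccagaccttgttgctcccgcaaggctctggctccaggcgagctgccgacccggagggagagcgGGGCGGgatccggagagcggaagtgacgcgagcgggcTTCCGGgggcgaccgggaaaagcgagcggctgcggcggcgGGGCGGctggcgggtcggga
Ago1, chr4:126468582-126468881, minus strand: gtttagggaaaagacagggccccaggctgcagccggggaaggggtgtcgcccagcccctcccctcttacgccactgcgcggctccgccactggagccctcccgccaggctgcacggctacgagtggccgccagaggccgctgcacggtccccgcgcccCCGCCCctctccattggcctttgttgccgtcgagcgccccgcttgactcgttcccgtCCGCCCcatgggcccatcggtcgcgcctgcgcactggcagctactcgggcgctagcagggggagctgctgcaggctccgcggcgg
Tnrc6b, chr15:80711063-80711362, plus strand: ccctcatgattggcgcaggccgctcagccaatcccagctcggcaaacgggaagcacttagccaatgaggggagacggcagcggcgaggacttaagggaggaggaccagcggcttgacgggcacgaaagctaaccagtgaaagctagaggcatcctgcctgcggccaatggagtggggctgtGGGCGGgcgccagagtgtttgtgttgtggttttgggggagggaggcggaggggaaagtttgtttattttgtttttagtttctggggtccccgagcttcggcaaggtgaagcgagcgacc

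The *Ago3* promoter held 5 GC boxes and 1 ETS core, that of *Ago1* 2 GC boxes and that of *Tnrc6b* 1 GC box. Of the genes whose groups overlapped and whose promoters are not printed, *Ago4* also held 5 GC boxes, *Dcp1a* 2 ETS cores and *Dcp1b* 1. *Tnrc6a* and *Tnrc6c* held none of the motifs. No promoter of *Ago2* or *Dcp2* is described here. Of all 32851 mouse promoters in the same table, 35.7% held a GC box, 14.9% an ETS core, 7.15% an E-box and 1.79% the cyclic AMP element. G and C made up 74.7% of the bases of the *Ago3* promoter, 73.0% of *Ago1* and 59.7% of *Tnrc6b*. *Ago1* and *Tnrc6b* each had a further promoter in the table that is not printed, with 2 GC boxes and with 1 E-box. No motif in the printed promoters was shared by *Ago3* and *Tnrc6b* and absent from *Ago1*, and no binding was measured.

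Of the GW182 genes, *Tnrc6b* differed between the groups. It was measured at 230.1, 149.4, 162.7 and 149.9 CPM in apoE4 libraries 1 to 4 and at 113.4, 108.6, 92.5 and 84.6 CPM in the control libraries. The apoE2 libraries held 88.2, 99.8, 125.0 and 94.1 CPM and the apoE3 libraries 104.6, 122.2, 102.0 and 88.3 CPM. All 4 apoE4 libraries were above the other 12, and apoE4 library 1 was far above the other 3. *Tnrc6a* lay between 43.7 and 57.5 CPM in all libraries with group means of 48.2 to 52.7 CPM. *Tnrc6c* lay between 88.7 and 149.6 CPM, with means of 132.4 ± 12.6 CPM in the control and 126.8 ± 12.9 with apoE4 (SD, n = 4). The 4 groups overlapped for both *Tnrc6a* and *Tnrc6c*.

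The decapping genes divided in the same manner. *Dcp2*, the catalytic subunit, was measured at 127.2, 73.4, 87.9 and 122.9 CPM in apoE4 libraries 1 to 4 and at 62.5, 57.3, 51.5 and 59.0 CPM in the control libraries. The apoE2 libraries held 61.7, 58.2, 59.0 and 60.8 CPM and the apoE3 libraries 60.4, 57.4, 54.8 and 54.5 CPM. The 12 libraries without apoE4 lay within 51.5 to 62.5 CPM, and the apoE4 values were both higher and further apart, with a mean of 102.8 ± 26.4 CPM (SD, n = 4). *Dcp1a*, which encodes an activator of the enzyme, lay between 21.8 and 30.1 CPM in all libraries. *Dcp1b*, its paralog, lay between 8.37 and 11.4 CPM. For both genes the groups overlapped.

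**Figure D1:**
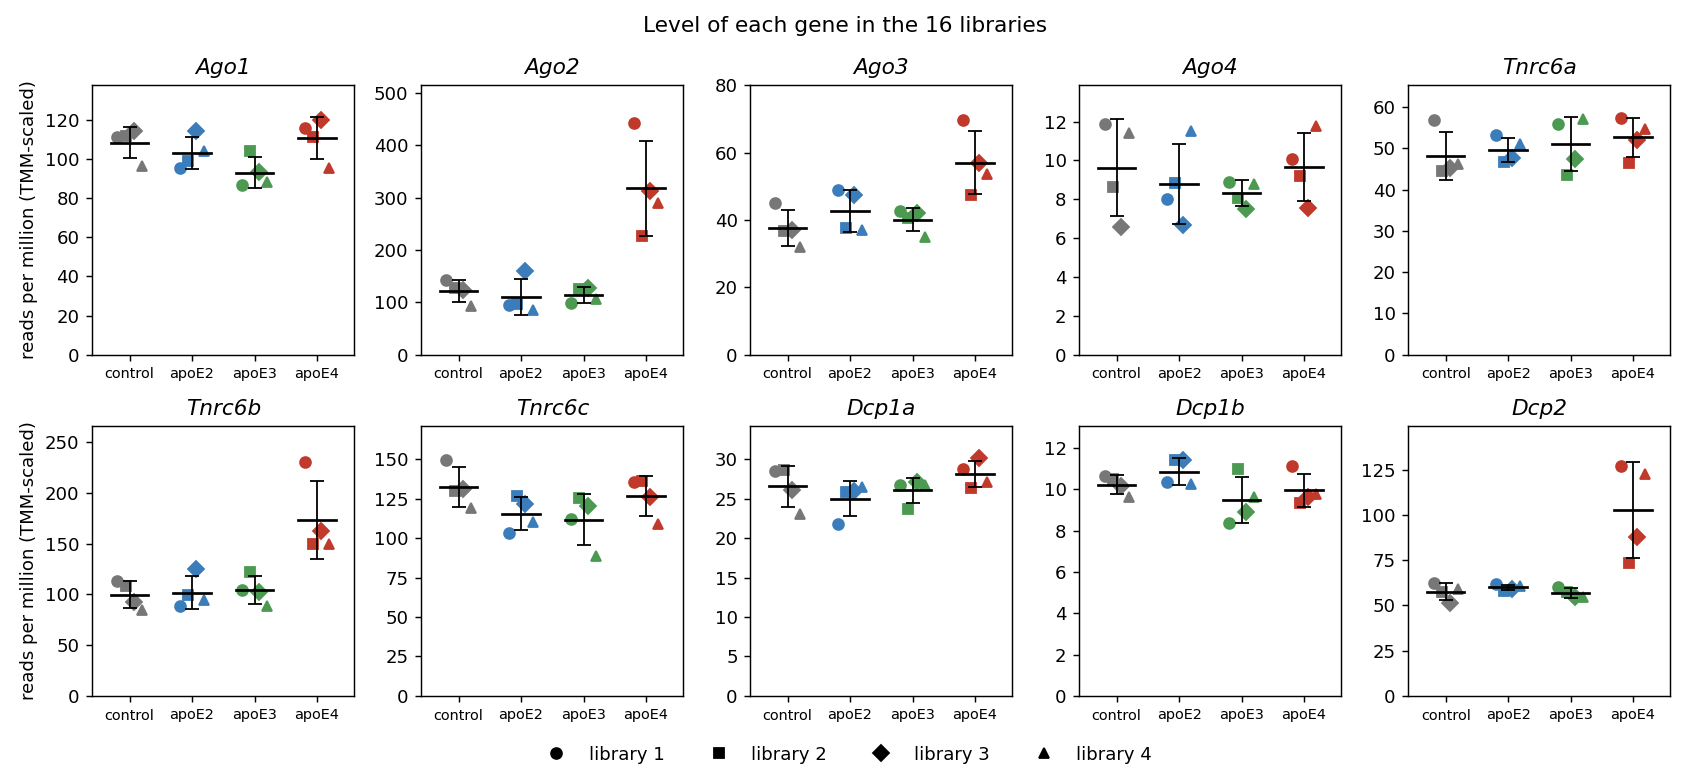
Level of each of the 10 genes in CPM (y axis, from 0) in the 4 groups (x axis), with 1 symbol per library, a line at the mean and a bar of 1 SD (n = 4). In *Ago2*, *Tnrc6b* and *Dcp2* the 4 apoE4 libraries sit above the other 12, in *Ago3* above the control and apoE3 libraries, and in the other 6 genes the groups overlap.

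Across all tested genes, the comparison of apoE4 with the control asks which neuronal RNAs differ when the medium carries apoE4. In edgeR's fit *Ago2* was higher by a log2 fold change of 1.38 (SE 0.22, 2.61-fold, adjusted p = 0.0192) and *Dcp2* by 0.84 (SE 0.14, 1.79-fold, adjusted p = 0.0256). The estimates for *Tnrc6b* (0.79, SE 0.16, 1.73-fold, adjusted p = 0.0841) and *Ago3* (0.59, SE 0.14, 1.51-fold, adjusted p = 0.172) did not pass an adjusted p of 0.05. In this fit 2 of the 10 genes were called, beside 0.194% of all tested genes. Libraries that share a replicate number tended to deviate together, although the labels do not say what the number marks. With that number as a block in edgeR's fit all 4 were called, beside 3.3% of all genes. The adjusted p in that fit was 0.00057 for *Ago2*, 0.00079 for *Dcp2*, 0.0034 for *Tnrc6b* and 0.00084 for *Ago3*. DESeq2 also called these 4 (0.534% of all genes), with an adjusted p of 0.0472 for *Ago3*. All 4 were higher in apoE4 than in the control of the same number in 4 of 4 pairs. The log2 ratio within pairs 1 to 4 was 1.64, 0.83, 1.33 and 1.64 for *Ago2* and 1.03, 0.36, 0.77 and 1.06 for *Dcp2*. For *Tnrc6b* it was 1.02, 0.46, 0.81 and 0.83, and for *Ago3* 0.63, 0.36, 0.62 and 0.74. Pair 2 gave the smallest ratio for each of the 4. Its apoE4 library is the one with few *Lars2* reads and the fewest reads outside genes of its group, and the part of these in its ratios was not tested. Without it the log2 fold change was 1.51 for *Ago2* (adjusted p = 0.0080), 0.97 for *Dcp2* (adjusted p = 0.0017), 0.86 for *Tnrc6b* (adjusted p = 0.0549) and 0.67 for *Ago3* (adjusted p = 0.0804).

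The other 6 genes had fitted changes of −0.06 to 0.13 on the log2 scale in apoE4 against the control, and none was called in edgeR's fit, with the block or by DESeq2. Their 95% confidence intervals reached at most 0.47 in either direction, that of *Ago4*. The median log2 fold change over the 10 genes was 0.10, against 0.00 over all tested genes. The calls of *Ago2* and *Dcp2* did not hold in every fit with a library left out. Those fits were run without the block and have less power than the full one. Without any 1 of the 4 control libraries, or without apoE4 library 1 or 4, neither passed, although the log2 fold change stayed between 1.18 and 1.51 for *Ago2* and between 0.72 and 0.97 for *Dcp2*. A fit of the control and apoE4 libraries alone called 0 of the 10, and 0% of all genes.

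ApoE4 was also compared with each of the other isoforms, which asks whether a difference from the control was shared by all media with apoE. The allele and the astrocyte line cannot be told apart here either. These comparisons share the apoE4 libraries with the one against the control. Against apoE3 the log2 fold change was 1.47 for *Ago2* (SE 0.23, adjusted p = 0.0171) and 0.86 for *Dcp2* (SE 0.14, adjusted p = 0.0273). The values for *Tnrc6b* (0.73, adjusted p = 0.175) and *Ago3* (0.50, adjusted p = 0.447) did not pass, and with the block they were called at an adjusted p of 0.0105 and 0.0054. Against apoE2 it was 1.54 for *Ago2* (SE 0.23, adjusted p = 0.0094) and 0.78 for *Dcp2* (SE 0.14, adjusted p = 0.0342). Again *Tnrc6b* (0.77, adjusted p = 0.0883) and *Ago3* (0.41, adjusted p = 0.497) did not pass, and with the block they were called at an adjusted p of 0.0048 and 0.0091. So 2 of the 10 genes were called in each comparison beside 0.147% and 0.252% of all genes, 4 with the block beside 1.77% and 4.44%, and 3 by DESeq2 beside 0.405% and 0.957%. These calls did not hold in every fit with a library left out either, again without the block. With each of 16 libraries left out in turn, *Ago2* passed against apoE3 in 11 fits and against apoE2 in 14. *Dcp2* passed against apoE3 in 8 of the 16 and against apoE2 in only 5, with the highest adjusted p at 0.121 and 0.123. Its log2 fold change stayed between 0.74 and 0.99 against apoE3 and between 0.66 and 0.91 against apoE2. Fits of the 2 groups compared alone called 0 of the 10 in each comparison, beside 0.0064% of all genes against apoE3 and 0.0186% against apoE2.

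ApoE2 and apoE3 did not give such values. Against the control, the log2 fold change of *Ago2* was −0.15 (95% confidence interval −0.63 to 0.33) with apoE2 and −0.09 (−0.57 to 0.39) with apoE3. For *Dcp2* it was 0.06 (−0.25 to 0.36) and −0.02 (−0.33 to 0.29). For *Tnrc6b* it was 0.03 (−0.32 to 0.38) and 0.06 (−0.28 to 0.41), and for *Ago3* 0.18 (−0.12 to 0.48) and 0.09 (−0.21 to 0.39). By edgeR 0 of the 10 genes were called in either comparison (0% and 0.00587% of all genes), nor by the block (1.73% and 11.7%) or DESeq2 (0.17% and 0.352%). At an unadjusted p under 0.05, edgeR without the block had 0 of the 10 with apoE2 and 1 with apoE3, beside 2.79% and 6.43% of all genes. It was *Ago1* at −0.22 (SE 0.10, adjusted p = 0.767). Between apoE3 and apoE2, 0 of the 10 were called by edgeR, with the block or by DESeq2 (0%, 1.31% and 0.0529% of all genes), and 0 had an unadjusted p under 0.05 in edgeR's fit, beside 2.28% of all genes.

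**Figure D2:**
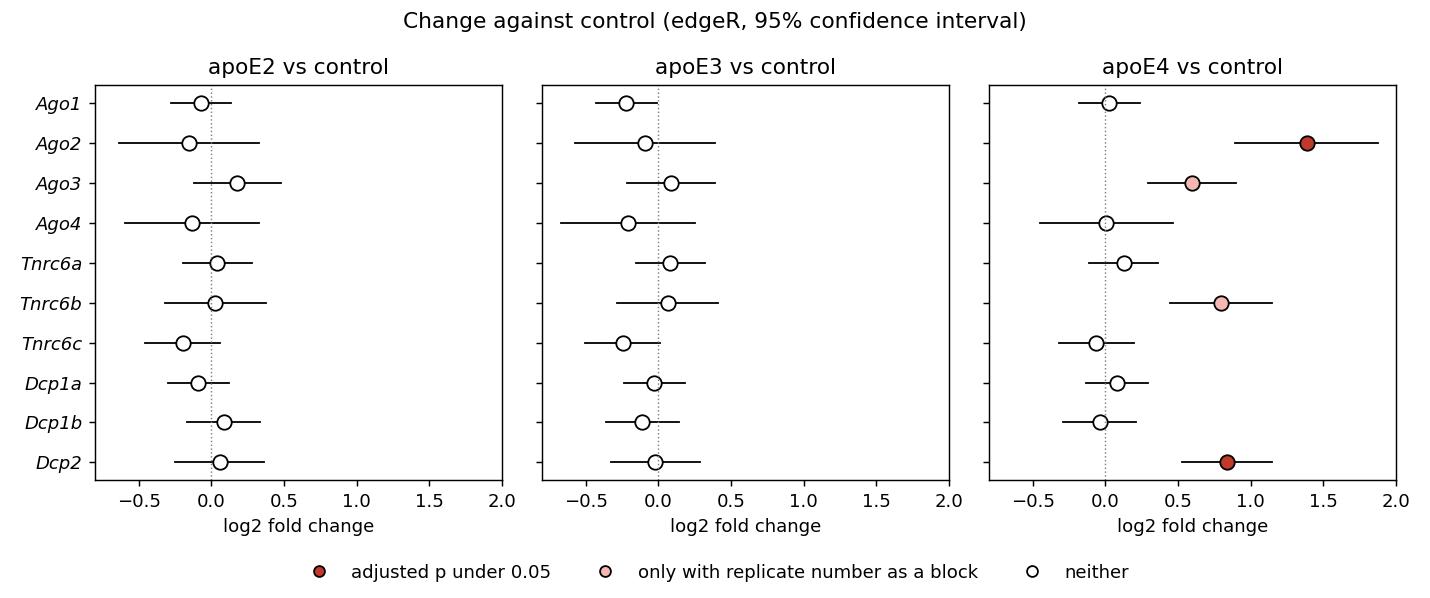
Log2 fold change of each gene against the control (x axis) in edgeR's fit over all tested genes, for apoE2, apoE3 and apoE4, with bars for the 95% confidence interval. Filled points have an adjusted p under 0.05 (dark without the block, light only with it), which holds for *Ago2*, *Dcp2*, *Tnrc6b* and *Ago3* with apoE4 and for no gene with apoE2 or apoE3.

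Per kb of exon, levels can be set side by side between genes. In the control, *Ago1* was the highest Argonaute at 13.4 ± 1.0 CPM per kb (SD, n = 4), followed by *Ago2* at 8.67 ± 1.48, *Ago3* at 2.28 ± 0.32 and *Ago4* at 1.39 ± 0.36. In the apoE4 libraries the order of the first and the second gene was turned, with *Ago2* at 22.6 ± 6.5 CPM per kb and *Ago1* at 13.6 ± 1.3. *Ago2* made up 33.5% ± 2.5 of the Argonaute total in the control and 54.4% ± 5.7 with apoE4, against 31.5% ± 5.2 with apoE2 and 35.0% ± 2.1 with apoE3. Its lowest share in an apoE4 library, 47.4%, was above its highest in any other, 38.9%. The total over the 4 Argonautes was 25.7 ± 2.6 CPM per kb in the control and 41.1 ± 7.6 with apoE4.

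Of the GW182 genes, *Tnrc6c* was the highest in the control at 10.3 ± 1.0 CPM per kb, while *Tnrc6b* at 4.21 ± 0.57 and *Tnrc6a* at 3.80 ± 0.46 did not differ beyond their spread. With apoE4 *Tnrc6b* was at 7.31 ± 1.63 CPM per kb, and its share of the family was 34.0% ± 3.6, against 23.0% ± 1.6 in the control. *Tnrc6c* was still the highest of the 3 with apoE4, at 46.4% ± 3.9. *Dcp2* was the highest decapping gene in both groups, with a share of 57.7% ± 2.5 in the control and 69.6% ± 5.1 with apoE4. *Dcp1a* (3.23 ± 0.32 CPM per kb in the control) and *Dcp1b* (1.61 ± 0.07) were lower.

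**Figure D3:**
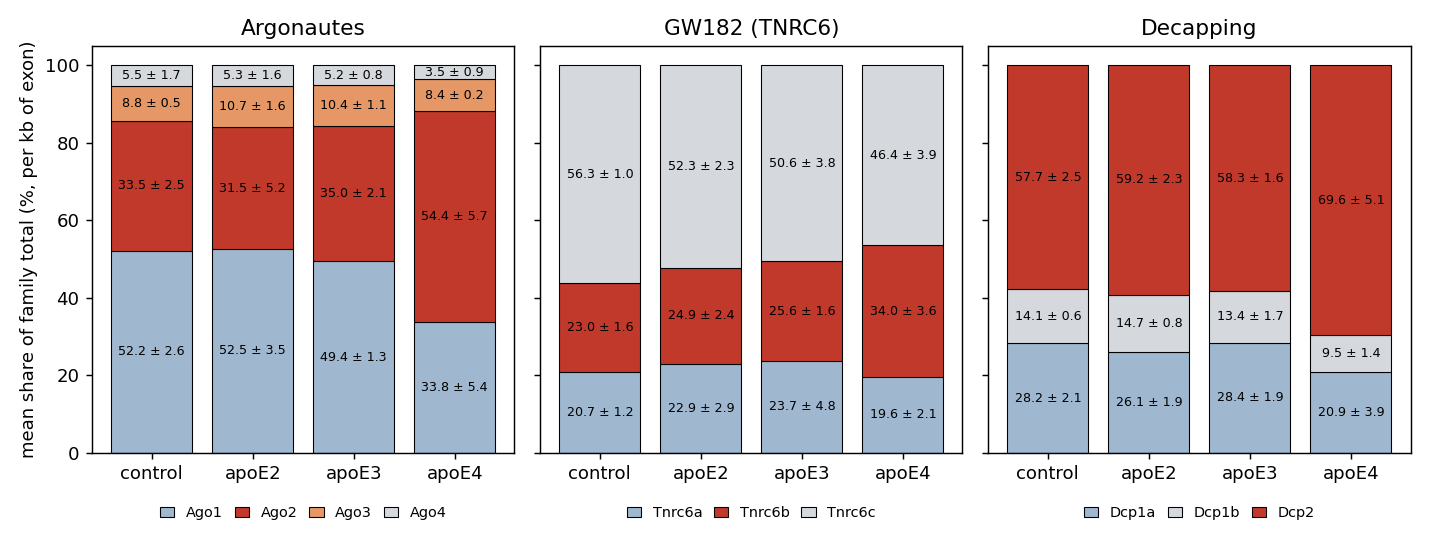
Mean share of each gene in the total of its family (y axis, %, from CPM per kb of exon) in the 4 groups (x axis), with the mean and SD of the 4 libraries written in each bar. *Ago2*, *Tnrc6b* and *Dcp2* take 54.4, 34.0 and 69.6% with apoE4 and 33.5, 23.0 and 57.7% in the control.

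The 4 genes with the highest log2 fold change in apoE4 against the control were the 4 with the longest 3′UTR among the 10. Of 14023 tested genes with an annotated 3′UTR, 0.143% had a longer one than *Ago3*, 0.214% than *Tnrc6b*, 0.264% than *Ago2* and 1.41% than *Dcp2*. The 3′UTR length also moved with the apoE4 comparison over all genes. The median log2 fold change was 0.00 for the 5443 genes with under 1 kb, 0.05 for the 1073 genes with 4 to 7 kb and 0.09 for the 224 genes with 7 kb or more. In apoE3 against the control the median of the 224 was −0.06. The 4 genes were in the upper part of the 224 with apoE4, where 2 had a higher log2 fold change than *Ago2*, 17 than *Dcp2*, 18 than *Tnrc6b* and 23 than *Ago3*. When a smooth dependence on 3′UTR length was taken out of each library, *Ago2* was at 1.21 (adjusted p = 0.0086) and *Tnrc6b* at 0.62 (adjusted p = 0.0286), while *Dcp2* at 0.71 (adjusted p = 0.113) and *Ago3* at 0.41 (adjusted p = 0.532) did not pass, beside 0.17% of all genes called. In the same fit *Dcp2* did not pass against apoE3 (0.70, adjusted p = 0.151) or apoE2 (0.66, adjusted p = 0.122) either. *Ago2* passed against both, and *Tnrc6b* against apoE2 (0.61, adjusted p = 0.0228) and not against apoE3 (0.51, adjusted p = 0.128), beside 0.123% of all genes for apoE3 and 0.223% for apoE2. With the block as well, all 4 were called against the control (3.02% of all genes). Against apoE3 and apoE2 the fit with the offsets and the block called *Ago2*, *Dcp2* and *Tnrc6b* (1.64% and 4.56% of all genes). *Ago3*, called there with the block alone, did not pass, at a log2 fold change of 0.27 (adjusted p = 0.0666) and 0.25 (adjusted p = 0.0526).

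**Figure D4:**
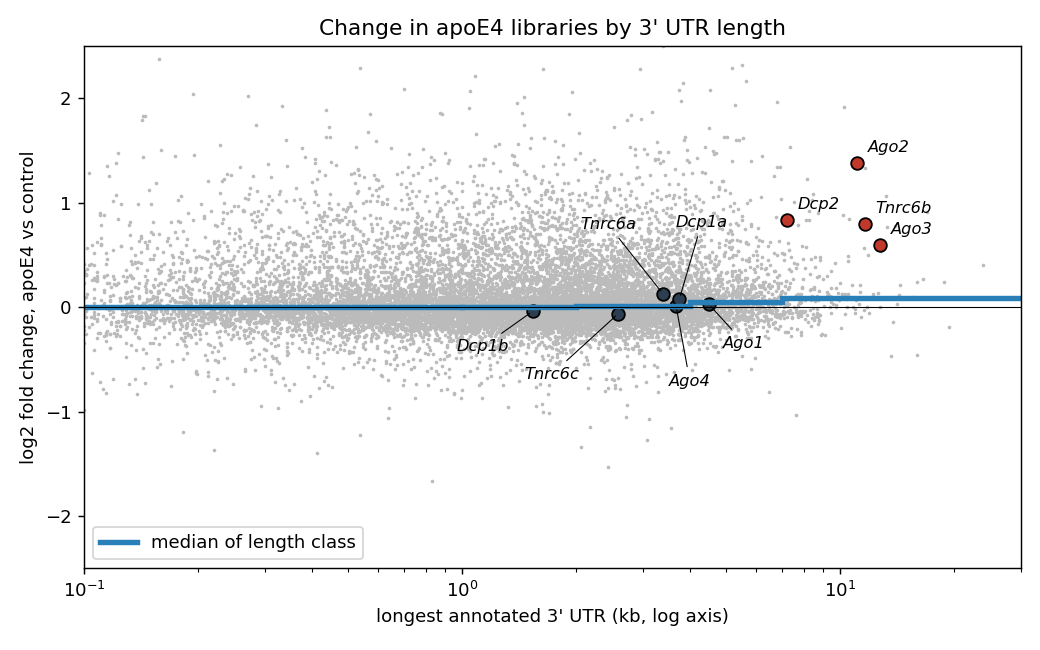
Log2 fold change of apoE4 against the control (y axis) by longest annotated 3′UTR (x axis, kb, log scale), with the tested genes in grey, the medians of 5 length classes as blue lines and the 10 genes named. 380 genes lie outside the axes. *Ago2*, *Tnrc6b*, *Ago3* and *Dcp2* lie at the right and above the class median of 0.09, and the other 6 lie close to 0.

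The rest of the pathway was read from lists of 62 genes, of which 60 were tested, since *Patl2* had at most 6 counts in a library and *Cnot9* was not a symbol of the files. By edgeR 0 of the 60 were called in any of the 6 comparisons, beside 33 of all 17038 tested genes for apoE4 against the control. At an unadjusted p under 0.05, edgeR had 2 higher and 0 lower in that comparison, against 420 and 143 of all tested genes (3.3%). In the same terms it had 1 higher and 0 lower with apoE2 and 1 higher and 2 lower with apoE3. Between isoforms it had 6 and 1 for apoE4 against apoE3, 3 and 1 against apoE2, and 0 for apoE3 against apoE2. Over all tested genes, 4.7% and 5.34% had such a p for apoE4 against apoE3 and apoE2. For apoE4 against the control DESeq2 called 0 of the 60, beside 0.534% of all tested genes. With the block 3 were called, all higher in apoE4, beside 3.3% of all tested genes, of which 541 were higher and 22 lower. In that comparison the median log2 fold change of the 60 was −0.02, against 0.00 over all tested genes.

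The 2 genes at an unadjusted p under 0.05 were *Cnot6* and *Dicer1*. *Cnot6*, a catalytic subunit of the CCR4-NOT deadenylase, was at 55.8 CPM with apoE4 and 34.2 CPM in the control (log2 fold change 0.70, SE 0.18, adjusted p = 0.291, with the block 0.0229). It was higher in 4 of 4 pairs, and the groups overlapped. Against apoE2 its log2 fold change was 0.81 (adjusted p = 0.112, with the block 0.0069, by DESeq2 0.0098). Besides it, DESeq2 called only *Cnot8* among the 60, in the same comparison, at −0.22 (adjusted p = 0.0260). In apoE4 against the control *Cnot8* was at −0.16 (SE 0.07) in edgeR's fit and had the smallest p of the deadenylation list after *Cnot6*. With apoE2 and apoE3 the smallest p of this list belonged to *Pan3* (−0.13 and −0.18), followed by its catalytic partner *Pan2* (−0.28) with apoE2 and by *Cnot3* (−0.38) with apoE3. Of the 15 deadenylation genes tested, 7 had a positive and 8 a negative log2 fold change in apoE4 against the control.

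Of the 6 genes of microRNA production, *Dicer1*, which cuts the precursors to mature microRNAs, was at 87.6 CPM with apoE4, 73.6 in the control and 65.3 with apoE3. It had a log2 fold change of 0.25 (SE 0.10, adjusted p = 1.00) against the control and 0.42 (SE 0.10, adjusted p = 0.232, with the block 0.0086) against apoE3, and the apoE4 libraries did not overlap either group. *Dgcr8*, the partner of Drosha in the nucleus, was at −0.15 (SE 0.10) against the control. With apoE2 *Tarbp2* (−0.28) and *Dgcr8* (−0.17) came first in this list, and with apoE3 *Dicer1* (−0.17) and *Drosha* (−0.10). Over the 6 genes, 3 were positive and 3 negative with apoE4.

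Among 17 tested partners of decapping and 5′ to 3′ decay, 10 were positive and 7 negative with apoE4 and none was called with the block. *Lsm14b* (−0.16, SE 0.09) and *Lsm1* (−0.19, SE 0.11) had the smallest p of this list. With apoE2 and apoE3 it was *Lsm5* and *Lsm4*, members of the Lsm ring that binds mRNA ends, with *Lsm5* at 0.41 (SE 0.18) and 0.47 (SE 0.18) and *Lsm4* at 0.19 and 0.20. Of the 10 genes of nonsense-mediated decay, 2 were positive and 8 negative with apoE4. *Upf3a* (−0.12, SE 0.10) and *Smg8* (−0.07, SE 0.09) came first there, and *Smg1*, the kinase that acts on UPF1, came first with apoE2 (−0.25, SE 0.12) and apoE3 (−0.27, SE 0.12), followed by *Smg6* (−0.14) and *Upf1* (−0.17).

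The 12 mRNA-binding silencing factors were evenly divided, 6 positive and 6 negative with apoE4. *Mov10*, an RNA helicase that binds Argonaute, was at 0.43 (SE 0.25) and *Fmr1*, the fragile X protein gene, at −0.19 (SE 0.11). *Gigyf1* had the smallest p of the list with apoE2 (−0.29) and apoE3 (−0.38), and *Fxr1* was at 0.09 with apoE2. *Zfp36l1* and *Zfp36l2*, whose proteins bind AU-rich elements, were called only with the block. In apoE4 against the control they were at 0.95 (adjusted p = 0.0310) and 0.99 (adjusted p = 0.0082), and in apoE3 against the control at 1.10 (adjusted p = 0.0067) and 0.72 (adjusted p = 0.0237). Both are low in these cultures, with means of 2.99 to 5.83 CPM and 5.29 to 10.8 CPM.

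The genes whose values over the 16 libraries were most like those of *Ago2*, by the root mean square difference of log2 CPM centred on each gene's mean, were *Zfp280b* (0.198), *Cbl* (0.214) and *Cmtm4* (0.227). *Ago2* itself varied by 0.690 around its mean on this scale. Their log2 fold change in apoE4 against the control was 1.38, 1.08 and 1.34. Those most like *Dcp2*, which varied by 0.386, were *Xpo4* (0.0822), *Cbx5* (0.123) and *Zfp652* (0.139), with log2 fold changes of 0.84, 0.84 and 0.92. All 6 were picked by their values over these same 16 libraries, the apoE4 ones among them, so a like change in apoE4 follows from the choice. The longest 3′UTR of these 6 genes had 3341 to 8469 bases.

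Cell-type markers were read beside these values, since their levels differed between libraries. The summed astrocyte markers had medians of 1048 CPM in the control, 1834 with apoE2, 2610 with apoE3 and 2012 with apoE4, and ranges that overlapped. All 6 had a positive log2 fold change with apoE4 (median 0.72) and with apoE3 (median 0.83) against the control, and 0 were called by edgeR in either, while with the block 3 and 6 were. The 6 fibroblast and mural markers, led by *Col1a2*, *Acta2* and *Col1a1*, were low, with a summed level of 21.5 to 297.6 CPM over all libraries and medians of 55.7 CPM in the control and 101.2 with apoE4. All 6 also had a positive log2 fold change with apoE4 against the control (median 0.77), and 0 were called by edgeR, against 1 with the block. Against apoE2 the block called 2 of the 6 as higher with apoE4. Of the 6 oligodendrocyte lineage markers 5 were positive with apoE4 against the control (median 0.47) and 0 were called in either fit, with summed medians of 205.8 CPM in the control and 259.2 with apoE4. Of the 5 microglia markers 3 were positive (median 0.06). The summed neuron markers had medians of 5400 CPM in the control and 5462 with apoE4. Of the 8 neuron markers 1 was positive and 7 were negative with apoE4 against the control (median −0.04), and 0 were called by edgeR or with the block. With apoE3 it was also 1 and 7 (median −0.13), with 0 called by edgeR and 1 higher and 2 lower with the block. The share of uniquely aligned reads outside genes had medians of 25.6% in the control and 33.5% with apoE4, with a range of 15.8 to 41.4% in the apoE4 libraries. The part of these marker levels and of reads outside genes in the values of the 4 genes was not tested.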

How the data were processed

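RNA-seq libraries of hippocampal neurons were made with ribosomal RNA depletion and an Illumina TruSeq kit. The authors aligned reads to mm10 with STAR and assigned them to genes with HTSeq. The deposited values are raw counts. The annotation used and the strand setting are not given in the sources used here. Reads on no single gene, 38.4 to 73.7% of a library, were left out of library sizes. Groups were taken from the sample labels, with 4 independent cultures each by the study's methods.

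Counts were fitted with edgeR 4.0.16 in R 4.3.3 (TMM scaling, filterByExpr with a minimum count of 10, a total of 15 and a proportion of 0.7, quasi-likelihood test, 1 coefficient per group over 16 libraries) for 17038 genes, with Benjamini-Hochberg adjustment within each of 6 comparisons. CPM uses the TMM-scaled library size, CPM per kb the exon length of GENCODE M21, and log2 CPM a prior count of 2. The 10 genes had 110 to 7947 reads per gene and library, and the read number alone did not set the precision. In apoE4 against the control, *Ago2*, with 1288 to 7947 reads, had an SE of 0.22, and *Dcp1b*, with 110 to 404, one of 0.11. The fit was also run on counts simulated with less spread between libraries than these data have, so that run does not show its power or error rate here. The study used a per-gene test of scaled counts, with a 2-fold change and p under 0.05, unadjusted, as its criterion. No library pair of a group differed by less than the sampling noise, as the lowest chi-square per gene was 39.6.

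The labels do not say whether a replicate number marks a shared culture. Correlations of deviations from the group means were 0.362 to 0.831 between libraries of the same number and −0.736 to 0.569 between different numbers. These ranges overlap, so the pairing behind the block and the pairs is inferred from these data. The blocked value is given where it changes a call. Alternatives were DESeq2 size factors, DESeq2 1.42.0, no low-count filter, 1 CPM in 8 libraries, the 2 groups compared alone, the replicate block, offsets for length and GC, the study's limits on fold and unadjusted p applied to edgeR's values and each library left out. Offsets for 3′UTR length were added after seeing the data.

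The 10 genes, the pathway and marker lists and the tests were chosen with earlier results of these data known. The text names the 10 genes, any list gene called, the 2 smallest p per list and comparison with the control, and the 3 genes most like each called gene. *Cnot8* (with apoE2) and *Zfp36l1* were named after their values were seen.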

Additional observations from a re-analysis of the deposited data

Results flagged for a closer look

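Among 40 sets of 4 libraries (10 genes in 4 groups), 5 had a library whose gap to the nearest of the others was a larger part of the range than Dixon's 95% limit for 4 values, and chance alone flags about 1 in 20 such sets. *Ago2* in apoE2 library 3 was at 160.1 CPM, against 85.5 to 97.4 in the other 3. *Tnrc6b* in apoE4 library 1 was at 230.1 CPM, against 149.4 to 162.7. *Tnrc6a* in control library 1 was at 56.9 CPM, against 44.6 to 46.2. *Dcp1a* was low in apoE2 library 1 (21.8 CPM against 25.9 to 26.4) and in apoE3 library 2 (23.8 CPM against 26.7 to 27.1).

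The difference between apoE4 and the other isoform groups passed the test for *Ago2* and *Dcp2*, and allele and astrocyte line cannot be told apart in it. By edgeR's quasi-likelihood test *Ago2* was higher with apoE4 than with apoE3 by a log2 fold change of 1.47 and than with apoE2 by 1.54, and *Dcp2* by 0.86 and 0.78, each in 4 of 4 pairs of the same number. With 1 of the 16 libraries left out, *Ago2* passed in 11 fits against apoE3 and 14 against apoE2, and *Dcp2* in 8 and 5.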

How the results depend on the processing

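The 10 genes in 6 comparisons were refitted under 11 other settings and with each of 16 libraries left out. Of these 1620 refits, 1499 kept the direction and the side of the threshold, 45 changed sign at values of at most 0.14 that did not pass before or after, 50 no longer passed it, 26 passed it in addition and 0 of the called values changed sign. The number of the 10 genes called for apoE4 against the control, 2 in the reported fit, was 4 with DESeq2, 4 with the replicate block (also with offsets for length and GC, or for 3′UTR length, beside it), 0 with the 2 groups alone, 1 by the study's fold and p limits with edgeR's p in place of its own test (1.15% of all genes) and 0 to 2 with 1 library left out. Against apoE3 it was 4 with the block and 4 with length and GC offsets beside it (1.71% of all genes), 3 with 3′UTR length offsets beside it, 1 with 3′UTR length offsets alone (0.123%), 0 with the 2 groups alone (0.0064%), 1 by those limits (1.25%) and 0 to 2 with 1 library left out. Against apoE2 it was 4 with the block and 4 with length and GC offsets beside it (4.68%), 3 with 3′UTR length offsets beside it, 0 with the 2 groups alone (0.0186%), 1 by those limits (1.3%) and 0 to 2 with 1 library left out. For apoE3 against the control, 2 were called with length and GC offsets plus the block (*Ago1* at −0.24 and *Tnrc6c* at −0.25), beside 12.9% of all genes, where the block alone called 0. Of the 60 other genes, the block called 3 for apoE4 against the control, 2 against apoE3 and 1 against apoE2, each the same number with either kind of offset beside it. For apoE3 against the control it called 2, also with 3′UTR length offsets, and 4 with length and GC offsets. DESeq2 called 2 of the 60 for apoE4 against apoE2, and with 1 library left out 0 to 1 were called in the 3 comparisons of apoE4. The causes were not tested. The block changed no call of the 10 genes other than those of *Tnrc6b* and *Ago3* in the 3 apoE4 comparisons.

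Over the libraries left out, the adjusted p of *Ago2* for apoE4 against the control was 0.0080 to 0.0849 and that of *Dcp2* 0.0017 to 0.123. Neither passed without any 1 of control libraries 1 to 4 or without apoE4 library 1 or 4. Against apoE3, *Ago2* did not pass without apoE3 library 1, 2 or 4 or apoE4 library 1 or 4, and *Dcp2* without any apoE3 library, apoE4 library 1 or 4, control library 4 or apoE2 library 1. Against apoE2, *Ago2* did not pass without apoE2 library 1 or 4, and *Dcp2* passed only without control library 1 or 3, apoE3 library 4 or apoE4 library 2 or 3. The annotation counted here is not known, so levels per kb and 3′UTR lengths rest on GENCODE M21. *Ago4* and *Dcp1b*, with 110 to 454 reads per library, had the fewest reads of the 10. In apoE4 against the control *Ago4* had the widest interval of the 6 uncalled genes (SE 0.21), while *Dcp1b* had an SE of 0.11, near that of *Tnrc6c* at 0.12.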
